A study of Mus musculus with 18 samples.

Results

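Liver RNA was sequenced from 10 wild-type male C57BL/6J mice, 5 fed an isocaloric control diet (Ctrl) and 5 fed a diet 99% deficient in riboflavin (B2D). Both diets began at 4 wk of age and lasted 4 wk. Both groups were fasted overnight before the liver was taken, so neither shows the fed state. These are 10 of the 18 libraries of the series, 1 library per mouse, numbered Ctrl 1 to Ctrl 5 and B2D 1 to B2D 5. The diet acted on the whole animal, and the labels give no transgene or drug for either group. Levels are given as FPKM, a count of sequenced fragments divided by gene length and by a scale factor for each library. The genes described are the 11574 of 54532 listed genes with a mean of at least 0.5 FPKM over the 10 mice.

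Riboflavin, vitamin B2, is taken up by the SLC52A transporters and converted first to FMN by riboflavin kinase and then to FAD by FAD synthase. FMN and FAD are the bound electron carriers of flavoproteins, among them the acyl-CoA dehydrogenases of fatty acid and amino acid breakdown, subunits of respiratory complexes I and II, oxidases of the peroxisome and enzymes that process vitamin B6 and folate. In the fasted liver these enzymes feed fat and amino acid oxidation, which in turn powers glucose and ketone production.

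Between 15320729 and 21266792 reads per library fell on genes. All 10 hepatocyte markers, among them Alb and Apob, were present in every mouse, and their summed level was between 37419 and 47946 FPKM in Ctrl and between 37613 and 52701 FPKM in B2D. A pair of B2D mice stood apart from the rest. In B2D 2 the 7 adipocyte markers other than Car3 summed to 63.6 FPKM, against between 1.63 and 2.76 FPKM in the other mice, and their part in the results was not tested. B2D 3 had reads on the fewest genes, 15866 against 17079 to 19479 in the others, and the lowest weight, 0.496, when limma weighted libraries by their fit. The samples are bulk tissue, so fewer cells of a type and less RNA per cell cannot be told apart in any value below.

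More genes were lower than higher in riboflavin-deficient liver. B2D was compared with Ctrl by limma on log2(FPKM + 1), with a gene called where the Benjamini-Hochberg adjusted p was under 0.05. By this rule 224 genes were lower in B2D, 1.94% of the genes tested, and 89 were higher, 0.769%. The added 1 makes every log2 fold change below smaller than the true change where levels are low. Mean FPKM was at least 2-fold lower for 114 of the genes called lower and at least 2-fold higher for 42 of those called higher. Every B2D mouse lay below every Ctrl mouse for 335 genes, 2.89% of those tested, and above every Ctrl mouse for 241, 2.08%. These shares of calls and of genes without overlap are the background for the counts of each list below. The median log2 fold change of all genes was -0.0013, near 0. At an unadjusted p under 0.05, 10.1% of all genes were lower and 8.24% higher, the background for every such count below. Counts of calls depended on single mice. Without Ctrl 2, 78 genes were lower and 31 higher, without Ctrl 4, 72 and 26, and without Ctrl 1, 116 and 37. Without B2D 2 the counts were 116 and 45, and without B2D 4, 108 and 40. Without B2D 3 they were 177 and 70, and without both B2D 2 and B2D 3, a choice made after seeing the data, 75 and 26. In 10 fits that dropped 1 mouse in turn (leave-one-out fits), all 313 called genes kept their direction wherever they were fitted, and 6 of them fell under the 0.5 FPKM filter in some fits. As 264 of the called genes did not overlap between the diets, a kept direction was near certain for most and adds no support. Of the 313, 66 of the lower and 24 of the higher were called in all 10.

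Abundant transcripts were called lower more often than higher. Of 96 genes with a mean of at least 500 FPKM, 8 were called lower and 0 higher by limma, and of 753 genes between 50 and 500 FPKM 41 were lower and 4 higher. Among the 6702 genes between 0.5 and 5 FPKM the counts were nearer each other, 69 lower and 51 higher. The median log2 fold change of all genes moved with level too, from 0.03 at 0.5 to 5 FPKM and -0.04 at 5 to 50 FPKM to -0.11 both at 50 to 500 FPKM and above. Of the 8 genes with the highest levels among those called lower, 6 are on the list of male-biased liver genes described next, namely Mup3, Mup20, Gstp1, Serpina1e, Mup7 and Cyp2d9. The others were Sord, which encodes sorbitol dehydrogenase, and Gm23935, annotated as a miRNA gene. Sord stood at 625, 681, 488, 763 and 704 FPKM in Ctrl 1 to Ctrl 5 and at 389, 248, 443, 404 and 377 FPKM in B2D 1 to B2D 5, without overlap. This was a log2 fold change of -0.82 (SE 0.171, adjusted p = 0.02902). Its call was lost without Ctrl 1, Ctrl 2, Ctrl 4, Ctrl 5 or B2D 4, with an adjusted p of up to 0.0872.

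**Figure D1:**
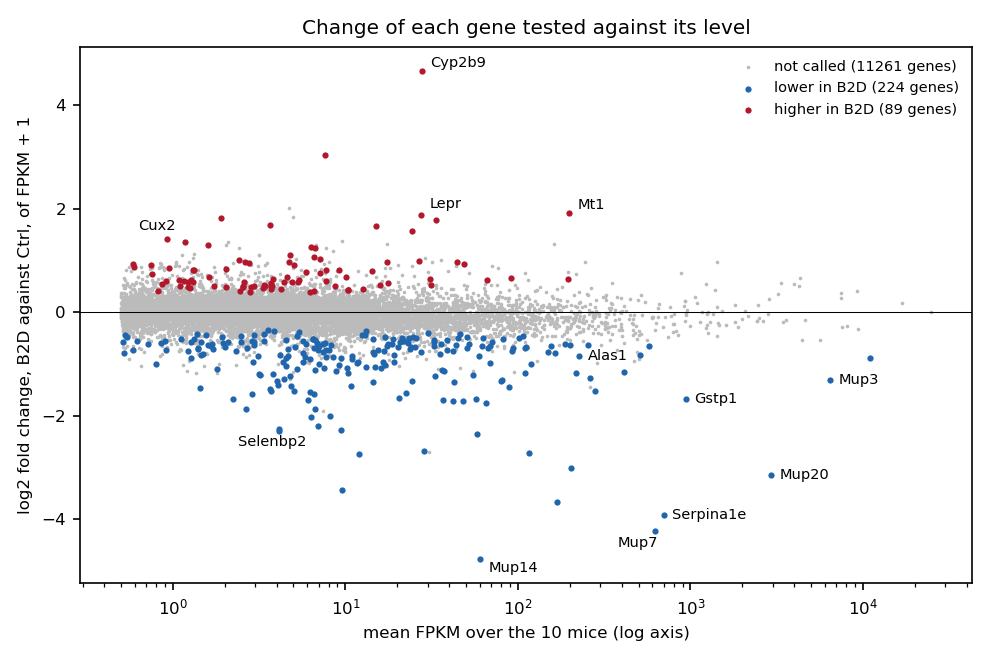
Each point is 1 of the 11574 genes tested, with its mean FPKM over the 10 mice on a log axis and its log2 fold change of FPKM + 1, B2D against Ctrl, on the other axis. The 224 genes called lower (blue) reach from the lowest to the highest levels, while the 89 called higher (red) lie mostly under 50 FPKM, with Mt1 the most abundant.

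Many of the largest changes belonged to genes that differ between male and female mouse liver. In mice, growth hormone is released in pulses in males and more steadily in females, and STAT5b, activated by the growth hormone receptor, sets the level of many such genes. Of 39 tested male-biased genes, 24 were called lower in B2D and 0 higher. Their median log2 fold change was -1.67, 38 were below 0 and 21 did not overlap between the diets. Of 25 tested female-biased genes, 12 were called higher and 0 lower. Here the median was 0.90, with all 25 above 0 and 13 without overlap. The mice were all male, and the lists were written with results of these data known. The male-biased count was 10 without Ctrl 2, 11 without Ctrl 4, 16 without B2D 2 and 28 without B2D 3. The female-biased count was 6 without Ctrl 2 or Ctrl 4, 7 without Ctrl 1 or B2D 4, 9 without B2D 2 and 11 without B2D 3.

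Among male-biased genes, the major urinary proteins, small carriers of pheromones that the male liver secretes in bulk, held several of the largest falls. Mup20, the protein that makes male urine attractive to females, was at 3563, 7428, 3975, 5619 and 5568 FPKM in the 5 Ctrl mice and at 546, 410.2, 1126, 368 and 658 FPKM in the 5 B2D mice. No B2D mouse came near the lowest Ctrl mouse. The mean went from 5231 ± 1537 to 622 ± 304 FPKM (SD, n = 5 per diet), for a log2 fold change of -3.14 (SE 0.294, adjusted p = 0.000524), and Mup20 passed in all 10 leave-one-out fits. In all, 10 of the 14 tested Mup genes were called lower and all 14 had a log2 fold change below 0. Mup3, the most abundant, fell from 9041 ± 1803 to 3831 ± 1405 FPKM (SD, n = 5 per diet) and lost its call without Ctrl 2, Ctrl 4 or B2D 2, with an adjusted p of up to 0.0785. The Mup genes have near-identical copies among which reads could have been split, so the value of any single copy is uncertain. Mup15 was uneven in B2D, at 7.398, 6.33, 158, 5.904 and 54.7 FPKM, with B2D 3 as high as a Ctrl mouse, and its call was lost without Ctrl 1, Ctrl 2, Ctrl 4, Ctrl 5, B2D 1, B2D 2 or B2D 4, with an adjusted p of up to 0.105.

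Of 15 male-biased enzymes of steroid, lipid and drug metabolism, 10 were called lower. Selenbp2, a selenium-binding protein gene, stood at 6.83, 10.5, 4.44, 11.4 and 4.84 FPKM in Ctrl and at 0.622, 0.671, 0.853, 0.771 and 0.579 FPKM in B2D. The B2D mice lay in a narrow band below 1 FPKM, far under every Ctrl mouse (log2 fold change -2.26, SE 0.212, adjusted p = 0.000524). Gstp1, a glutathione transferase and one of the most abundant liver enzymes of the male, was at 1038, 1685, 1059.8, 1157 and 2207 FPKM in Ctrl and at 587, 479, 579, 322 and 263 FPKM in B2D. The diets did not overlap (log2 fold change -1.68, SE 0.272, adjusted p = 0.00978). Hsd3b5, a male-specific steroid dehydrogenase, varied widely among Ctrl mice, at 24.2, 30.04, 3.502, 31.2 and 4.32 FPKM, and was at 0.596, 0, 1.07, 0.166 and 0.0679 FPKM in B2D, the latter from 17, 0, 29, 5 and 2 reads. Its lowest Ctrl mouse still exceeded the highest B2D mouse. Cyp7b1, which hydroxylates oxysterols and sex steroids, went from 72.1 ± 22.8 FPKM in the Ctrl mice to 23.5 ± 13.99 FPKM in the B2D mice (SD, n = 5 per diet), a log2 fold change of -1.71, and lost its call without Ctrl 2, Ctrl 4 or B2D 4, with an adjusted p of up to 0.0714. Cyp4a12b, a fatty acid hydroxylase with a near-identical copy, had a log2 fold change of -1.73 and Cyp2d9, a steroid hydroxylase, of -0.66, the latter lost without Ctrl 2 or Ctrl 4, with an adjusted p of up to 0.0801. Secreted and transport genes of the list were lower too, with 4 of 10 called, among them the organic anion transporter Slco1a1 at 84.5, 125, 54.1, 125 and 77.1 FPKM in Ctrl and 16.9, 10.1, 56.4, 4.96 and 22.98 FPKM in B2D. B2D 3 alone overlapped the Ctrl range, and the call of Slco1a1 was lost without Ctrl 1, Ctrl 2, Ctrl 4 or B2D 2, with an adjusted p of up to 0.0851.

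Some of the female-biased genes called higher were nearly absent in Ctrl. Cyp2b9, a P450 that male liver hardly makes, had 7, 0, 0, 45 and 14 reads in Ctrl 1 to Ctrl 5 and 400, 1660, 179, 5552 and 1989 reads in B2D 1 to B2D 5. These correspond to 0.2097, 0, 0, 1.21 and 0.357 FPKM and 11.6, 51.8, 5.44, 152 and 55.8 FPKM, so that the B2D mice themselves spanned a wide range while all stood above Ctrl. Fmo2, a flavin-containing monooxygenase, went from 6.601 ± 2.397 FPKM in the Ctrl mice to 23.6 ± 8.15 FPKM in the B2D mice (SD, n = 5 per diet), and passed in all 10 leave-one-out fits. The bile salt and drug transporter Slco1a4 rose from 14.5 ± 4.803 to 52.4 ± 18.9 FPKM (SD, n = 5 per diet), for a log2 fold change of 1.78, and also passed in all 10. Cyp39a1, an oxysterol hydroxylase, had a log2 fold change of 0.98 with 1 B2D mouse inside the Ctrl range, and its call was lost without Ctrl 2 or Ctrl 4, with an adjusted p of up to 0.0623. The transporters Slc22a27 and Slc22a26 were near 0 in Ctrl and at means of 1.08 ± 0.525 and 1.296 ± 0.586 FPKM in B2D (SD, n = 5 per diet), with log2 fold changes of 0.87 and 0.90. Cyp17a1, the steroid 17-alpha-hydroxylase, was at 26.9, 24.6, 34.6, 22.96 and 35.5 FPKM in Ctrl and 53.5, 50.7, 45.5, 45.3 and 103 FPKM in B2D. The groups were apart, with B2D 5 far above its group, and the call was lost without Ctrl 1, Ctrl 2, Ctrl 4, B2D 1, B2D 2 or B2D 4, with an adjusted p of up to 0.114. Nipal1, a magnesium transporter gene also on the list, had a log2 fold change of 1.11 and lost its call without Ctrl 1, Ctrl 2, Ctrl 4, Ctrl 5, B2D 2 or B2D 4, with an adjusted p of up to 0.090004.

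Of the regulators of sex-biased genes, Cux2, Prlr and Ghr were called. Cux2, a repressor that female liver makes and male liver hardly does, had 5, 1, 23, 10 and 2 reads in the Ctrl mice and 217, 420, 282, 405 and 349 reads in the B2D mice. These are 0.0279, 0.00571, 0.116, 0.04997 and 0.00949 FPKM against 1.17, 2.44, 1.59, 2.07 and 1.82 FPKM. All B2D mice were above 1 FPKM and all Ctrl mice close to 0 (log2 fold change 1.42, SE 0.121, adjusted p = 0.000524), and the call held in all 10 leave-one-out fits. Cux2 (ENSMUSG00000042589) lies on chromosome 5 of GRCm38 from 121856366 to 122050102. Prlr, the prolactin receptor, which is higher in female liver, rose from 3.24, 2.79, 2.67, 2.16 and 3.401 FPKM in the 5 Ctrl mice to 6.03, 5.44, 8.36, 5.196 and 7.82 FPKM in the 5 B2D mice. A wide gap lay between the groups (log2 fold change 0.96, SE 0.138, adjusted p = 0.00557). Ghr, the growth hormone receptor, was lower, at 46.6, 54.6, 38.6, 59.98 and 42.9 FPKM in Ctrl and 27.8, 22.4, 32.5, 27.3 and 34.3 FPKM in B2D. The highest B2D mouse was close under the lowest Ctrl mouse (log2 fold change -0.73, SE 0.147, adjusted p = 0.0265), and the call was lost without Ctrl 1, Ctrl 2, Ctrl 4, B2D 2 or B2D 4, with an adjusted p of up to 0.0785. Of 17 tested genes of growth hormone signalling, these were the only 3 called. Stat5b, the transcription factor between receptor and target, was at 7.53 ± 1.02 FPKM in the Ctrl mice and 8.18 ± 0.995 FPKM in the B2D mice (SD, n = 5 per diet), not called (adjusted p = 0.639). Its targets Igf1, the main circulating growth factor of the liver, and Socs2, a feedback inhibitor, were not called either. Igf1 was at 55.5 ± 9.24 FPKM in the Ctrl mice and 53.7 ± 11.6 FPKM in the B2D mice (SD, n = 5 per diet), and Socs2 at 1.99, 1.56, 1.23, 1.84 and 0.647 FPKM in Ctrl and 2.07, 9.74, 4.67, 3.23 and 1.34 FPKM in B2D. These 3 genes were chosen after their values were seen.

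**Figure D2:**
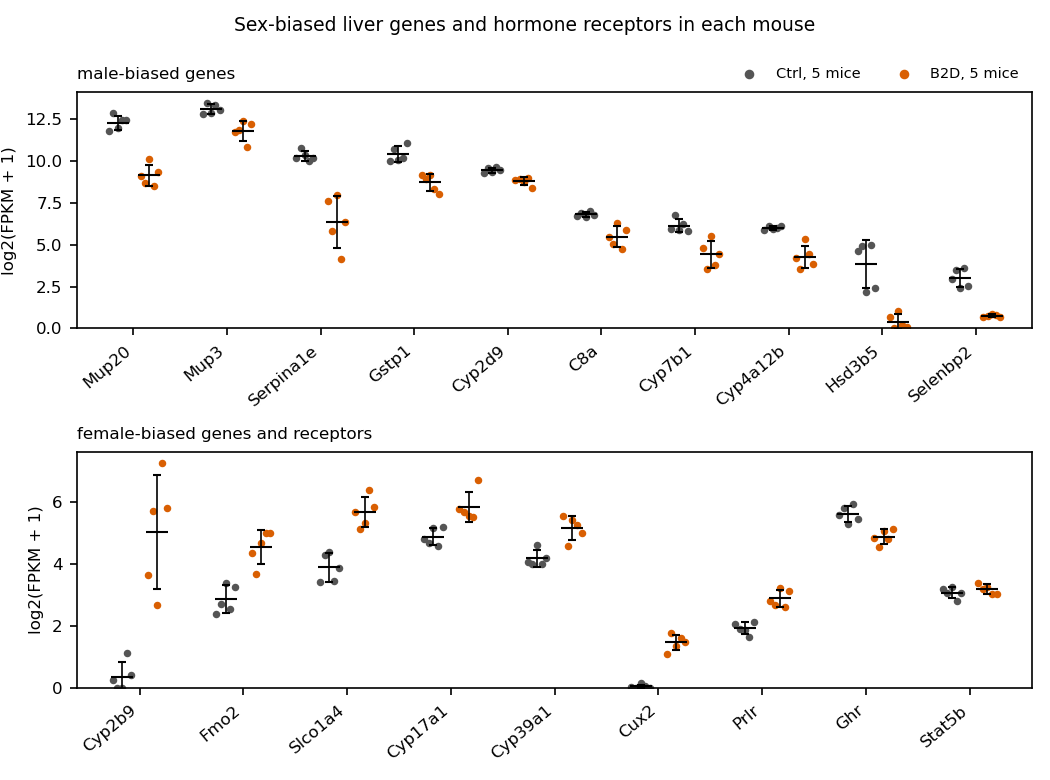
Each point is 1 mouse (grey Ctrl, orange B2D, 5 each), on an axis of log2(FPKM + 1), and the bars give the mean and SD of each group. The 10 male-biased genes of the upper panel lie lower in B2D, and in the lower panel the female-biased genes with Cux2 and Prlr lie higher and Ghr lower in B2D, while the groups of Stat5b overlap.

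The genes that take up riboflavin and make FMN and FAD from it did not pass the test. All 8 tested riboflavin handling genes overlapped between the diets, limma called 0 of them in either direction, and 1 had an unadjusted p under 0.05. Rfk, riboflavin kinase, stood at 18.2, 19.5, 17.9, 20.5 and 19.2 FPKM in Ctrl and at 19.9, 20.9, 23.9, 25.3 and 20.1 FPKM in B2D. Of the B2D mice, 3 were above the Ctrl range, for a log2 fold change of 0.19 (SE 0.0957, adjusted p = 0.3103). Flad1, FAD synthase, was at 9.51 ± 1.28 FPKM in the Ctrl mice and 10.5 ± 0.563 FPKM in the B2D mice (SD, n = 5 per diet). The uptake transporter Slc52a2 was at 2.502 ± 0.278 FPKM in the Ctrl mice and 3.05 ± 0.635 FPKM in the B2D mice (SD, n = 5 per diet), and Slc25a32, the carrier that brings FAD into mitochondria, at 8.07 ± 1.63 FPKM in the Ctrl mice and 10.6 ± 3.41 FPKM in the B2D mice (SD, n = 5 per diet). Of the enzymes that break flavins down, Acp2, Enpp1 and Enpp3 had log2 fold changes of -0.02, 0.02 and -0.16. The gene with an unadjusted p under 0.05 was Nt5e, the cell-surface nucleotidase that can release riboflavin from FMN, at 0.738, 0.548, 0.566, 0.972 and 1.295 FPKM in Ctrl and 1.14, 1.61, 1.86, 2.93 and 1.28 FPKM in B2D (log2 fold change 0.58, adjusted p = 0.0954). Of 9 genes listed, 1 was under 0.5 FPKM and was not tested.

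Of the genes of flavoproteins themselves, 104 were tested, and 5 were called lower and 2 higher, against 1.94% and 0.769% of all genes. At an unadjusted p under 0.05, 27 were lower and 6 higher. The median of their log2 fold changes was -0.08, and the diets did not overlap for 11 genes that were below Ctrl and 2 above. Among 24 oxidases of the peroxisome, cytosol and microsome, 3 were called lower, 18 were below 0 and the median was -0.20. Hao1, the glycolate oxidase of the peroxisome and an FMN enzyme, was at 100.3, 151, 88.7, 124 and 106 FPKM in Ctrl and at 49.1, 33.3, 65.3, 29.3 and 57.7 FPKM in B2D. All B2D mice were below all Ctrl mice and the call held in all 10 leave-one-out fits (log2 fold change -1.30, SE 0.223, adjusted p = 0.0118). Gulo, which makes vitamin C from gulonolactone, had a log2 fold change of -0.69 and lost its call without Ctrl 1, Ctrl 2, Ctrl 4, Ctrl 5, B2D 4 or B2D 5, with an adjusted p of up to 0.0753. Paox, a polyamine oxidase, had one of -0.42 and lost its call without Ctrl 1, Ctrl 2, Ctrl 3, Ctrl 4, Ctrl 5, B2D 2, B2D 3 or B2D 4, with an adjusted p of up to 0.115. Among 21 mitochondrial flavoproteins 2 were called, among them Sqor, which oxidizes sulfide. The log2 fold change of Sqor was -0.58, and its call was lost without Ctrl 1, Ctrl 2, Ctrl 4, Ctrl 5, B2D 3 or B2D 4, with an adjusted p of up to 0.105. Fmo2, of the female-biased list, was among the genes called higher. The list's lower calls numbered 1 without Ctrl 2, Ctrl 4 or B2D 4, 2 without Ctrl 1 and 3 without Ctrl 5 or B2D 2.

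The acyl-CoA dehydrogenases and electron transfer genes, which pass electrons to ubiquinone through FAD, had a smaller median change than the oxidases. Of 15 acyl-CoA dehydrogenases and electron transfer genes limma called 0, with 4 lower and 1 higher at an unadjusted p under 0.05 and a median log2 fold change of -0.10. Acadsb, the enzyme of isoleucine breakdown, was at 16.04, 20.6, 16.7, 19.4 and 19.5 FPKM in Ctrl and 13.4, 10.8, 15.7, 12.7 and 14.1 FPKM in B2D, and did not overlap, but was not called (adjusted p = 0.0622). Acadvl, the very long chain fatty acid enzyme, was at 123 ± 8.39 FPKM in the Ctrl mice and 127 ± 16.6 FPKM in the B2D mice (SD, n = 5 per diet), and Etfdh, which hands their electrons to ubiquinone, at 68.2 ± 9.91 FPKM in the Ctrl mice and 84.01 ± 9.81 FPKM in the B2D mice (SD, n = 5 per diet). Of 8 choline, folate and 2-hydroxy acid dehydrogenases limma also called 0, but 7 were below 0 and the median was -0.22. At an unadjusted p under 0.05, 4 of these were lower and 0 higher. Sardh, the sarcosine dehydrogenase of choline breakdown, was at 155, 131, 153, 147 and 134 FPKM in Ctrl and 125, 98.2, 85.7, 108 and 108 FPKM in B2D. It too did not overlap and was not called (log2 fold change -0.46, adjusted p = 0.0615). In branched-chain amino acid breakdown, 22 of 26 genes were below 0 with a median of -0.21, limma called 0, and 8 had an unadjusted p under 0.05, all lower, where 10.1% of all genes were lower at that p. Mmaa, which readies vitamin B12 for methylmalonyl-CoA mutase, was at 3.85 ± 0.453 FPKM in the Ctrl mice and 2.63 ± 0.5295 FPKM in the B2D mice (SD, n = 5 per diet), not called (adjusted p = 0.0659). Acadvl, Etfdh and Sardh were chosen after their values were seen.

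Several genes of other cofactors were lower. Heme synthesis was led by Alas1, its rate-limiting enzyme in liver, at 324, 283, 301, 273 and 272 FPKM in Ctrl and 177, 206, 150.2, 173 and 113 FPKM in B2D. The groups were well apart and the call held in all 10 leave-one-out fits (log2 fold change -0.85, SE 0.1497, adjusted p = 0.0143). Alas1 (ENSMUSG00000032786) lies on chromosome 9 of GRCm38 from 106233455 to 106248654. Alad, the next enzyme, went from 59.4 ± 4.64 FPKM in the Ctrl mice to 42.3 ± 4.21 FPKM in the B2D mice (SD, n = 5 per diet), without overlap (log2 fold change -0.48), and lost its call without Ctrl 1, Ctrl 2, Ctrl 4, B2D 2, B2D 3, B2D 4 or B2D 5, with an adjusted p of up to 0.0788. Abcb10, a mitochondrial transporter of heme-making cells, had a log2 fold change of -0.55 and lost its call without Ctrl 2 or Ctrl 4, with an adjusted p of up to 0.0657. These were the 3 called of 14 tested heme genes, 13 of which were below 0, with a median of -0.20. The diets did not overlap for 5. Calls of lower genes made up 1.94% of all genes, and 2.89% had every B2D mouse below every Ctrl mouse. Only Alas1 was called without Ctrl 2 or Ctrl 4. Ppox, the FAD enzyme of the pathway, was not called, with a log2 fold change of -0.06, nor was Fech, which inserts the iron, at -0.20, both chosen after their values were seen. Alas2, the erythroid form, was also lower, at 19.98, 21.5, 15.1, 25.6 and 22.2 FPKM in Ctrl and 6.13, 6.58, 15.2, 6.003 and 5.95 FPKM in B2D. In this gene B2D 3 was as high as the lowest Ctrl mouse, and the call still held in all 10 leave-one-out fits (log2 fold change -1.36, adjusted p = 0.0114). The summed level of 8 erythroid markers, Alas2 among them, ranged from 184 to 250.5 FPKM in Ctrl and from 91.7 to 392 FPKM in B2D, and its part in the Alas2 result was not tested.

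In the path from tryptophan and its salvage branches to NAD, 4 of 15 genes were called lower and 0 higher, against 1.94% and 0.769% of all genes. The median log2 fold change was -0.20, with 12 genes below 0. Ido2, which opens the indole ring of tryptophan, was at 14.5, 17.4, 11.9, 12.2 and 17.9 FPKM in Ctrl and 6.08, 4.705, 5.798, 5.19 and 8.06 FPKM in B2D. Each B2D mouse was below each Ctrl mouse, and the call held in all 10 leave-one-out fits (log2 fold change -1.18, SE 0.1505, adjusted p = 0.00422). Afmid, the next enzyme, behaved alike, at 14.5 ± 2.45 FPKM in the Ctrl mice and 7.295 ± 1.82 FPKM in the B2D mice (SD, n = 5 per diet), a log2 fold change of -0.91 (adjusted p = 0.0126), with all 10 fits past the threshold. Haao, an enzyme near the end of the path, had a log2 fold change of -0.62 and lost its call without Ctrl 1, Ctrl 2, Ctrl 4, B2D 2, B2D 3 or B2D 4, with an adjusted p of up to 0.0844. Nampt, which recycles nicotinamide, had one of -0.71 with B2D 3 inside the Ctrl range, and lost its call without Ctrl 2, Ctrl 3, Ctrl 4, Ctrl 5, B2D 1, B2D 2 or B2D 4, with an adjusted p of up to 0.105. Kmo, the FAD enzyme of the path, was not called, at 61.3 ± 8.56 FPKM in the Ctrl mice and 52.3 ± 11.9 FPKM in the B2D mice (SD, n = 5 per diet), nor was Tdo2, the main tryptophan-opening enzyme of liver (log2 fold change -0.07), both chosen after their values were seen. The list's count was 2 without Ctrl 2, Ctrl 4, B2D 2 or B2D 4.

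A gene of vitamin B6 use was lower as well. Pdxk, the pyridoxal kinase, was at 8.696, 6.95, 6.75, 8.36 and 5.95 FPKM in Ctrl and 4.84, 3.84, 5.56, 4.87 and 3.31 FPKM in B2D (log2 fold change -0.61, SE 0.134, adjusted p = 0.0364). The diets did not overlap, and the call was lost without Ctrl 1, Ctrl 2, Ctrl 4, B2D 2, B2D 4 or B2D 5, with an adjusted p of up to 0.105. Further cofactor genes called lower were Nmrk1, a kinase of the NAD precursor nicotinamide riboside, at 12.6 ± 3.66 FPKM in the Ctrl mice and 5.03 ± 1.17 FPKM in the B2D mice (SD, n = 5 per diet), and Coasy, the last enzyme of coenzyme A synthesis, at 52.9 ± 4.14 FPKM in the Ctrl mice and 39.2 ± 2.13 FPKM in the B2D mice (SD, n = 5 per diet). So were Gch1, the first enzyme of tetrahydrobiopterin synthesis, at 34.5 ± 2.31 FPKM in the Ctrl mice and 25.95 ± 1.25 FPKM in the B2D mice (SD, n = 5 per diet), and Fdx1, a ferredoxin, at 26.4 ± 4.51 FPKM in the Ctrl mice and 17.6 ± 0.928 FPKM in the B2D mice (SD, n = 5 per diet). Nmrk1 passed in all 10 leave-one-out fits, while Coasy lost its call without Ctrl 1, Ctrl 2, Ctrl 4, B2D 2, B2D 3, B2D 4 or B2D 5, with an adjusted p of up to 0.09897, Gch1 without Ctrl 1, Ctrl 2, Ctrl 3, Ctrl 4, Ctrl 5, B2D 2, B2D 3, B2D 4 or B2D 5, with an adjusted p of up to 0.105, and Fdx1 without Ctrl 1, Ctrl 2, Ctrl 4, B2D 2, B2D 3, B2D 4 or B2D 5, with an adjusted p of up to 0.102. Pdxk and these 4 genes were chosen after their values were seen.

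Nitrogen metabolism was touched at single steps. Slc25a13, the mitochondrial aspartate and glutamate carrier citrin, was at 119, 126, 124, 129 and 125 FPKM in Ctrl and 89.6, 72.1, 97.4, 98.1 and 94.3 FPKM in B2D. The Ctrl mice lay close together and above every B2D mouse, yet the call was lost without Ctrl 1, Ctrl 2, Ctrl 3, Ctrl 4, Ctrl 5, B2D 1, B2D 2, B2D 4 or B2D 5, with an adjusted p of up to 0.109. Slc25a13 was the only gene called of 14 in the urea cycle and ammonia list, where 1.94% of all genes were called lower. Cps1, the entry enzyme, was at 1007 ± 198 FPKM in the Ctrl mice and 1461 ± 213 FPKM in the B2D mice (SD, n = 5 per diet), not called (adjusted p = 0.0854). Aldh4a1, which completes proline breakdown, had a log2 fold change of -0.54 and lost its call without Ctrl 1, Ctrl 2, Ctrl 4, B2D 2 or B2D 4, with an adjusted p of up to 0.0872. Car5a, the mitochondrial carbonic anhydrase that supplies bicarbonate to the urea cycle and to pyruvate carboxylase, fell from 35.6, 35.9, 26.96, 40.2 and 29.3 FPKM in Ctrl to 10.6, 8.23, 6.98, 12.7 and 17.4 FPKM in B2D. It did not overlap (log2 fold change -1.56, SE 0.206, adjusted p = 0.00484) and passed in all 10 leave-one-out fits. Car5a was chosen after its values were seen.

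Interferon-stimulated genes, which cells switch on through the IRF factors, had lower mean levels in B2D in most members. Of 62 tested, 13 were called lower and 0 higher, 57 were below 0, the median log2 fold change was -0.30, and 32 were lower at an unadjusted p under 0.05, against 10.1% of all genes. In 12 genes the diets did not overlap. Ifitm3, which blocks virus entry, was the most abundant of the called genes, at 261, 258, 233, 279 and 189 FPKM in Ctrl and 160.4, 165, 143, 157 and 154 FPKM in B2D. The B2D mice lay in a narrow band under the lowest Ctrl mouse (log2 fold change -0.63, SE 0.118, adjusted p = 0.0177). Rtp4, a restraint on the interferon response, was at 5.99, 5.99, 5.52, 7.09 and 5.54 FPKM in Ctrl and 2.98, 3.13, 1.95, 1.84 and 3.48 FPKM in B2D, without overlap. It was the only one called in all 10 leave-one-out fits. The count of calls was 1 without Ctrl 4, 2 without Ctrl 2, 4 without B2D 4, 5 without Ctrl 1 and 8 without B2D 2 or B2D 3.

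Further called genes were sensors, effectors and regulators of the response. Oas1a and Oas1b, which make the messenger that activates RNase L and have near-identical relatives, had log2 fold changes of -0.81 and -0.57. Irf7, the factor that amplifies the response, was at 12.2, 11.4, 8.63, 15.1 and 8.51 FPKM in Ctrl and 8.72, 6.17, 3.697, 4.65 and 5.46 FPKM in B2D. It overlapped through B2D 1, and lost its call without Ctrl 1, Ctrl 2, Ctrl 4, B2D 2, B2D 3, B2D 4 or B2D 5, with an adjusted p of up to 0.109. Ifit1, which binds foreign RNA ends, was at 5.95, 6.45, 4.05, 9.902 and 5.76 FPKM and 2.07, 3.57, 1.31, 2.25 and 4.02 FPKM. The groups were close but did not overlap, and the call was lost without Ctrl 1, Ctrl 2, Ctrl 4, Ctrl 5, B2D 1, B2D 3 or B2D 4, with an adjusted p of up to 0.0977. Ifi27, Ly6e, Ifit3, Ifit3b, Cmpk2, Irgm1 and Oasl1 were also lower, with log2 fold changes of -0.75, -0.62, -0.87, -0.64, -0.57, -0.52 and -0.58. Irf7, Ifit1, Ifit3, Irgm1 and Oasl1 were named, with Irf9, a factor that drives the list, after their values were seen. Irf9 was not called, at 8.45 ± 1.21 FPKM in the Ctrl mice and 6.04 ± 0.798 FPKM in the B2D mice (SD, n = 5 per diet). In the related antigen presentation list, limma called 0 of 23 genes, 19 were below 0 and 8 were lower at an unadjusted p under 0.05. Psmb8, an interferon-induced proteasome subunit, was at 5.44 ± 1.002 FPKM in the Ctrl mice and 3.53 ± 0.646 FPKM in the B2D mice (SD, n = 5 per diet), not called (adjusted p = 0.0744).

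Kupffer cells, the resident macrophages of the liver, can carry part of the interferon and complement transcripts. Their 12 markers were all detected and summed to between 143 and 173 FPKM in Ctrl and between 112 and 152 FPKM in B2D, with 11 of 12 below 0 and 2 called lower, C1qa and Clec4f. Clec4f, a lectin confined to these cells, was at 27.2, 32.7, 25.5, 30.3 and 27.8 FPKM in Ctrl and 16.99, 22.997, 20.9, 18.95 and 22.3 FPKM in B2D, without overlap, and lost its call without Ctrl 1, Ctrl 2, Ctrl 4, Ctrl 5, B2D 1, B2D 2, B2D 3, B2D 4 or B2D 5, with an adjusted p of up to 0.118. The 12 markers of monocytes, macrophages and dendritic cells summed to between 76.4 and 126 FPKM in Ctrl and between 64.0 and 95.8 FPKM in B2D. The part of these cells in the lower interferon-stimulated genes was not tested.

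The promoters of the interferon-stimulated genes are shown because the sequence that IRF factors bind, the interferon response element, is known. The genes were listed as targets of this response, so a high share of the element follows from the choice and says nothing of these livers. RefSeq promoters on GRCm38.p6, from 250 bases before the transcription start, were searched for 47 of the 62 genes. The letters GAAANNGAA, on either strand, occur in 27 of the 47, or 57.45%, and in 6 of the 9 called members with a promoter. They occur in 8.555% of the 27025 promoters searched and 7.034% of those of genes tested. A single promoter was searched per gene, that nearest the gene's start, and a chromosome was left out. In the stretches below, written on the strand of the gene, the capitals mark each match on either strand. The Ifitm3 stretch lies at chr7:141010715-141010767 (minus strand), Oas1a at chr5:120907506-120907570 (minus), Irgm1 at chr11:48871411-48871475 (minus), Ifit1 at chr19:34640755-34640838 (plus) and Ifit3 at chr19:34583349-34583460 (plus).
Ifitm3: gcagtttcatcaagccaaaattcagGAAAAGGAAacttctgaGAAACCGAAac
Oas1a: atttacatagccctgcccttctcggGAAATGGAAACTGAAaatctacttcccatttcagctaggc
Irgm1: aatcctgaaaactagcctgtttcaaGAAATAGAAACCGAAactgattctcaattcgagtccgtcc
Ifit1: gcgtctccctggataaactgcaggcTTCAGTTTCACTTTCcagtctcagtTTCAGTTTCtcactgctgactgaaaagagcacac
Ifit3: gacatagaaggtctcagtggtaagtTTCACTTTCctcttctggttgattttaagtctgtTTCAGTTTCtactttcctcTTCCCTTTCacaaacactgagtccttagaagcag
The stretch of Ifit3b, at chr19:34607745-34607856 (plus), has the same 112 bases as that of Ifit3, so reads of these copies may have been split between them. Both copies are counted among the called members with a match. A match is a description of the letters and not a site shown to be bound in these livers.

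**Figure D3:**
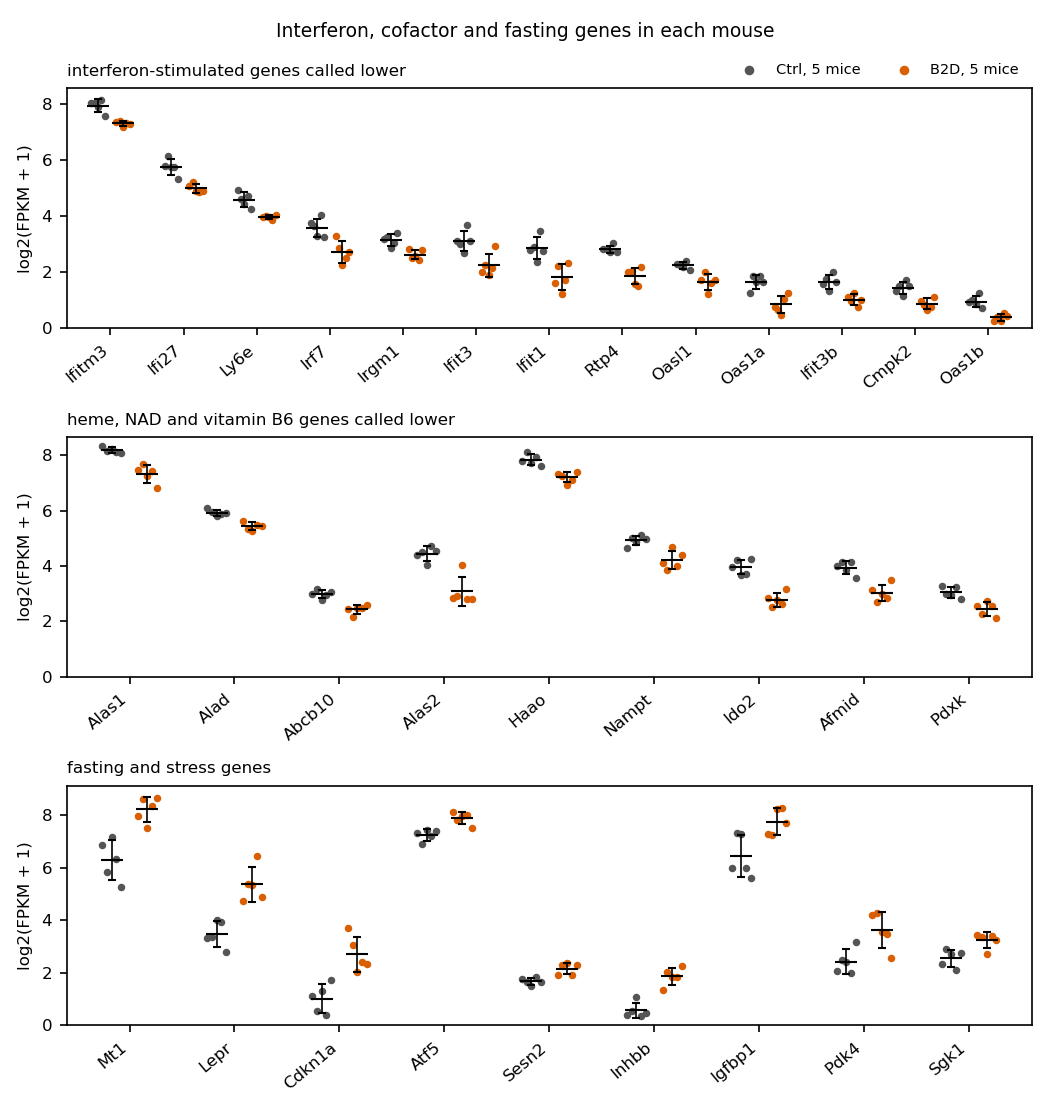
Each point is 1 mouse (grey Ctrl, orange B2D, 5 each) on an axis of log2(FPKM + 1), with bars for the mean and SD of each group. The 13 interferon-stimulated genes called lower are in the upper panel, 9 cofactor genes called lower in the middle panel, and the lower panel shows genes of fasting and stress, of which Igfbp1, Pdk4 and Sgk1 were not called and overlap between the diets.

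Complement genes are made mostly by hepatocytes. Of 36 tested, 6 were called lower and 0 higher, 32 were below 0, 9 did not overlap and the median log2 fold change was -0.29. Among all genes tested, 1.94% were called lower, and 2.89% had every B2D mouse below every Ctrl mouse. C9, C8a and C6, parts of the pore that the cascade inserts into membranes, had log2 fold changes of -1.45, -1.34 and -1.69. C9 was at 101, 151, 115, 133 and 139 FPKM in Ctrl and at 39.4, 36.7, 92.2, 26.5 and 55.7 FPKM in B2D, without overlap, with B2D 3 the closest to Ctrl. C8a and C6 are also on the male-biased list. C4bp, an inhibitor of the cascade, passed in all 10 leave-one-out fits, at 76.9 ± 14.3 FPKM in the Ctrl mice and 42.2 ± 5.15 FPKM in the B2D mice (SD, n = 5 per diet). Mbl1, a lectin that starts the cascade on sugars, had a log2 fold change of -0.67, and C1qa, which starts it on antibodies and is made by Kupffer cells, one of -0.50. C3, the central component, was not called and had a log2 fold change of 0.42, chosen after its values were seen. The count of calls was 1 without Ctrl 2 or Ctrl 4 and 3 without B2D 2 or B2D 4.

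Of 36 coagulation genes 2 were called lower and 0 higher, against 1.94% and 0.769% of all genes. In this list 24 were below 0, and 11 were lower and 3 higher at an unadjusted p under 0.05. The diets did not overlap for 6 genes below Ctrl and 1 above, against 2.89% and 2.08% of all genes. The count of lower calls was 1 without Ctrl 1, Ctrl 2, Ctrl 4, B2D 1, B2D 2, B2D 3 or B2D 4, and 3 without B2D 5. F11, factor XI of the contact pathway, was at 21.1, 25.3, 15.7, 20.8 and 19.6 FPKM in Ctrl and 8.32, 7.24, 9.74, 9.96 and 11.5 FPKM in B2D. Its groups were well apart (log2 fold change -1.05, SE 0.1405, adjusted p = 0.00484), and F11 passed in all 10 leave-one-out fits. Serpina10, an inhibitor of factor X, went from 39.6 ± 6.64 FPKM in the Ctrl mice to 26.005 ± 3.18 FPKM in the B2D mice (SD, n = 5 per diet), overlapped between the diets and lost its call without Ctrl 1, Ctrl 2, Ctrl 3, Ctrl 4, B2D 1, B2D 2, B2D 3 or B2D 4, with an adjusted p of up to 0.118. Among acute-phase proteins, Apcs, serum amyloid P, rose from 52.1 ± 10.98 FPKM in the Ctrl mice to 79.9 ± 8.21 FPKM in the B2D mice (SD, n = 5 per diet), without overlap (log2 fold change 0.63), and lost its call without Ctrl 1, Ctrl 3, Ctrl 4, Ctrl 5, B2D 1, B2D 2, B2D 3, B2D 4 or B2D 5, with an adjusted p of up to 0.1005. Lcn2, which binds bacterial iron carriers, had a log2 fold change of 0.83 and lost its call without Ctrl 1, Ctrl 2, Ctrl 3, Ctrl 4, Ctrl 5, B2D 1, B2D 2, B2D 4 or B2D 5, with an adjusted p of up to 0.135. Saa1, a strong marker of acute inflammation, was at 7.85, 7.99, 5.89, 5.896 and 4.25 FPKM in Ctrl and 3.99, 4.09, 5.72, 2.87 and 32.8 FPKM in B2D, with B2D 5 alone high, and was not called.

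Genes that rose outside the sex-biased lists included targets of fasting hormones, glucocorticoids and stress signals. Of 40 genes of the glucocorticoid and fasting response, 35 were above 0 and the median of the log2 fold changes was 0.32. At an unadjusted p under 0.05, 11 were higher, against 8.24% of all genes, and 2 were called higher, Lepr and Cdkn1a. The median deviation of the list from the Ctrl mean overlapped between the diets, reaching 0.17 in Ctrl 3 and 0.14 in Ctrl 2, against 0.06 in B2D 4 and 0.16 in B2D 3. The leptin receptor Lepr, which rises in fasted liver, was at 8.94, 9.16, 14.95, 14.4 and 5.86 FPKM in Ctrl and 25.8, 40.6, 39.4, 86.9 and 28.7 FPKM in B2D. No mice overlapped, and B2D 4 was the highest. Cdkn1a, the cell cycle inhibitor p21, was at 1.17, 0.453, 1.47, 0.298 and 2.34 FPKM in Ctrl and 11.9, 7.35, 3.09, 4.28 and 3.97 FPKM in B2D. It was low in every Ctrl mouse and higher in every B2D mouse (log2 fold change 1.68, SE 0.326, adjusted p = 0.0221). It lost its call without Ctrl 2, Ctrl 4 or B2D 2, with an adjusted p of up to 0.0721. Pdk4, which shuts off pyruvate oxidation, was at 3.202, 4.604, 4.33, 2.97 and 7.97 FPKM in Ctrl and 17.5, 18.2, 10.7, 10.2 and 4.91 FPKM in B2D, and Igfbp1, an insulin-repressed secreted protein, at 62.8, 160.0, 154, 62.3 and 47.6 FPKM and 153, 150.4, 304, 311 and 209 FPKM. Both overlapped between the diets and were not called (adjusted p = 0.0687 and 0.0779), nor was the kinase Sgk1, at 5.01 ± 1.29 FPKM in the Ctrl mice and 8.56 ± 1.77 FPKM in the B2D mice (SD, n = 5 per diet). Igfbp1 and Sgk1 were chosen after their values were seen. The list's count was 1 without Ctrl 2 or Ctrl 4, 4 without Ctrl 3 or B2D 5 and 0 without both B2D 2 and B2D 3. Of 25 genes of the ATF4 integrated stress response, 19 were above 0 and 2 were called higher, Atf5 and Sesn2, against 0.769% of all genes. Atf5, a factor of mitochondrial stress, was at 159.8, 118, 172, 146 and 168 FPKM in Ctrl and 274, 225, 249, 259 and 182 FPKM in B2D, without overlap, and lost its call without Ctrl 1, Ctrl 2, Ctrl 4, B2D 1, B2D 2, B2D 3 or B2D 4, with an adjusted p of up to 0.106. Sesn2, a brake on mTORC1, had a log2 fold change of 0.49 and lost its call without Ctrl 1, Ctrl 2, Ctrl 3, Ctrl 4, Ctrl 5, B2D 2, B2D 3 or B2D 5, with an adjusted p of up to 0.118. Atf4 itself was not called (log2 fold change 0.08), chosen after its value was seen. Inhbb, which encodes a subunit of activin and inhibin, rose from 0.304, 0.473, 1.08, 0.261 and 0.393 FPKM to 1.52, 3.11, 2.53, 2.603 and 3.72 FPKM and passed in all 10 leave-one-out fits.

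Mt1, a metallothionein that binds zinc and copper and responds to metals and glucocorticoids, was the most abundant gene called higher. It was at 117, 56.4, 143, 78.7 and 37.3 FPKM in Ctrl and 248, 396, 181, 325 and 399.8 FPKM in B2D. The lowest B2D mouse exceeded the highest Ctrl mouse (log2 fold change 1.93, SE 0.343, adjusted p = 0.0148). Mt2, its neighbour on chromosome 8, was at 0.478, 0, 1.03, 0.0857 and 0 FPKM and 0.924, 3.79, 0.678, 2.45 and 1.79 FPKM, not called (adjusted p = 0.06795) and chosen after its values were seen. Mtf1, the factor that reads zinc, had a log2 fold change of -0.05 and was not called. The Mt1 promoter is printed to show matches to the letters of the metal response element before and after the start that RefSeq gives. Whether transcription began at that start in these livers was not tested. These matches describe the letters and are not sites shown to be bound in these livers. The RefSeq sequence, GRCm38.p6 chr8:94178839-94179118 on the plus strand, starts 250 bases before the RefSeq start. Capitals mark the 3 matches to TGCACNC or TGCGCNC on either strand. Such letters are also held by 25.61% of all promoters searched and 36.22% of those of genes tested.
Mt1: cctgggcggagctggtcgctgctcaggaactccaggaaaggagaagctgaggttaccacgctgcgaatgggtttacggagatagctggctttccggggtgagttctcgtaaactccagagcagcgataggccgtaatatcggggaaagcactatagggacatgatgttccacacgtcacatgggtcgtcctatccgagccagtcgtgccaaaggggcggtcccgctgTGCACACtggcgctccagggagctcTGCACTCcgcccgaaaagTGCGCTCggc
Of 30 genes of metallothionein, zinc and iron handling, 3 were called higher and 0 lower, the others being Lcn2 and Hamp2. Among all genes tested, 0.769% were called higher. Hamp2, a relative of the iron hormone hepcidin, was at 9.93, 9.77, 28.4, 7.61 and 6.73 FPKM in Ctrl and 46.95, 34.5, 20.1, 25.98 and 52.1 FPKM in B2D. Ctrl 3 lay among the B2D mice, and the call was lost without Ctrl 1, Ctrl 2, Ctrl 4, Ctrl 5, B2D 1, B2D 2, B2D 4 or B2D 5, with an adjusted p of up to 0.109. Hamp itself was not called, with a log2 fold change of -0.29, chosen after its value was seen. The list's count was 1 without Ctrl 1, Ctrl 2, Ctrl 4, B2D 1, B2D 2 or B2D 4.

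Glucose and fat metabolism, which depend on flavoproteins at several steps, showed few calls. Of 46 genes of gluconeogenesis, glycolysis and glycogen limma called 0, with 4 lower and 3 higher at an unadjusted p under 0.05. Pck1, an early enzyme of gluconeogenesis, was at 1261 ± 222 FPKM in the Ctrl mice and 1261 ± 255 FPKM in the B2D mice (SD, n = 5 per diet). G6pc, the last enzyme, was at 155 ± 67.05 FPKM in the Ctrl mice and 145 ± 53.02 FPKM in the B2D mice (SD, n = 5 per diet), and both were chosen after their values were seen. Of 22 genes of the TCA cycle limma also called 0, with 1 in each direction at an unadjusted p under 0.05. Of 80 genes of fatty acid oxidation and PPARα targets 2 were called lower, Acsm1 and Amacr, with 7 lower and 14 higher at an unadjusted p under 0.05. The median log2 fold change was -0.01, which turned to 0.02 after upper-quartile rescaling and 0.10 after quantile normalization. Acsm1, which activates medium chain fatty acids, was at 113, 131, 93.6, 119 and 122 FPKM in Ctrl and 54.96, 55.4, 77.1, 79.3 and 77.7 FPKM in B2D, without overlap, and lost its call without Ctrl 2 or Ctrl 4, with an adjusted p of up to 0.0668. In fatty acid synthesis limma called 0 of 25, with 5 lower and 3 higher at an unadjusted p under 0.05.

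In cholesterol synthesis and uptake 24 of 28 genes were below 0, with a median log2 fold change of -0.27 and 7 lower at an unadjusted p under 0.05. The diets overlapped in the median deviation of the list, with Ctrl 3 at -0.35 and Ctrl 2 at -0.21, below B2D 1, B2D 3 and B2D 5 at -0.17, -0.20 and -0.16. The gene called lower was Mvk, mevalonate kinase, at 2.86, 2.37, 1.76, 2.901 and 2.91 FPKM in Ctrl and 1.299, 1.88, 1.17, 1.04 and 1.396 FPKM in B2D, which lost its call without Ctrl 1, Ctrl 2, Ctrl 4, Ctrl 5, B2D 1, B2D 3, B2D 4 or B2D 5, with an adjusted p of up to 0.0939. Of 21 tested genes of the bile acid list, 2 were called lower, Cyp7b1 and Slco1a1, and 2 higher, Cyp39a1 and Klb. Of all genes, 1.94% were called lower and 0.769% higher. Klb, the co-receptor through which FGF15 and FGF21 act, went from 8.67 ± 0.886 FPKM in the Ctrl mice to 12.1 ± 1.35 FPKM in the B2D mice (SD, n = 5 per diet) and lost its call without Ctrl 1, Ctrl 2, Ctrl 3, Ctrl 4, Ctrl 5, B2D 1, B2D 2, B2D 3 or B2D 4, with an adjusted p of up to 0.125. Of these 4 genes, the other 3 are on the sex-biased lists.

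Respiratory chain subunits are encoded in the nucleus and in mitochondria. Of 75 nuclear genes, limma called 0, 65 were below 0 and 1 was lower and 0 higher at an unadjusted p under 0.05. Their median on the log2 scale was -0.11, the same as that of all genes between 50 and 500 FPKM, and turned to 0.01 after quantile normalization. Of the 13 genes of the mitochondrial genome limma also called 0, but all 13 were above 0, with a median of 0.37 (0.49 after quantile normalization) and 8 higher at an unadjusted p under 0.05. mt-Cytb, of complex III, was at 6692, 8199, 8062, 7649.5 and 8540.3 FPKM in Ctrl and at 8999, 8996, 10325, 12416 and 11851 FPKM in B2D, and did not overlap. mt-Nd5, of the flavoprotein complex I, was at 2644, 3293, 3329, 3287 and 3397 FPKM in Ctrl and 3745, 4809, 3884, 6196 and 5014 FPKM in B2D, also apart (adjusted p = 0.0794). Mitochondrial genes took between 5.22% and 6.59% of reads in Ctrl and between 5.82% and 9.41% in B2D, where B2D 4 and B2D 5 were the highest. Without Ctrl 1 or B2D 4, 2 of the 13 genes were below 0, and without B2D 5, 1 was.

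Of 20 clock genes 16 were below 0, the median log2 fold change was -0.30, and 9 were lower and 2 higher at an unadjusted p under 0.05. The median deviation of the list was between -0.09 and 0.14 in the Ctrl mice and between -0.59 and -0.09 in the B2D mice. Of these genes 2 were called lower, among them Wee1. This clock-controlled kinase had a log2 fold change of -0.89 and lost its call without Ctrl 1, Ctrl 2, Ctrl 4, Ctrl 5, B2D 1, B2D 2, B2D 4 or B2D 5, with an adjusted p of up to 0.109. A few other lists held 1 or 2 called genes, where 1.94% of all genes were called lower and 0.769% higher. The hypoxia list had 21 tested genes, the matrix list 24 and the antioxidant list 35. Of 13 cell cycle genes Tk1 and Ccne1 were called lower, Tk1 at 5.61, 6.19, 4.17, 7.87 and 4.16 FPKM in Ctrl and 2.96, 1.14, 2.49, 0.753 and 2.499 FPKM in B2D, lost without Ctrl 1, Ctrl 2, Ctrl 4 or B2D 2, with an adjusted p of up to 0.0738. Ccne1 had 31, 40, 30, 55 and 52 reads and 24, 7, 11, 4 and 5 reads, lost without B2D 2 or B2D 4, with an adjusted p of up to 0.06602, and under the 0.5 FPKM filter in 4 of the 10 fits. Egln3, an oxygen sensor, was lower at 8.03 ± 0.6295 FPKM in the Ctrl mice and 5.27 ± 0.595 FPKM in the B2D mice (SD, n = 5 per diet) and lost its call without Ctrl 4 (adjusted p = 0.0533). Ndrg1, another hypoxia gene, was higher at 0.8499 ± 0.221 FPKM in the Ctrl mice and 1.597 ± 0.344 FPKM in the B2D mice (SD, n = 5 per diet) and passed in 0 of the 10 leave-one-out fits. Mmp14, a membrane protease of the matrix, rose from 7.03, 5.76, 7.13, 5.15 and 6.65 FPKM in Ctrl to 12.9, 11.2, 12.4, 12.7 and 10.6 FPKM in B2D, far apart, and passed in all 10. Prdx6, a peroxiredoxin of the antioxidant list, was lower with a log2 fold change of -0.50 and lost its call without Ctrl 1, Ctrl 2, Ctrl 4, Ctrl 5, B2D 2, B2D 4 or B2D 5, with an adjusted p of up to 0.102. Cyp2f2, a P450 of the periportal zone, was at 381, 351, 374, 381 and 355 FPKM in Ctrl and 183, 112, 206, 108 and 180.0 FPKM in B2D. Every Ctrl mouse was far above every B2D mouse, and the call held in all 10. It was the only gene called of 15 periportal genes, and limma called 0 of 14 pericentral ones, with 1 lower at an unadjusted p under 0.05. In the unfolded protein response (27 genes), heat shock (15), cytosolic ribosome (76), proteasome and autophagy (48) and apolipoprotein (23) lists limma called 0. At an unadjusted p under 0.05 these held 3, 1, 0, 2 and 7 genes lower and 0, 2, 0, 1 and 1 higher.

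Some of the called genes lay in no list. They are named by the size of their change, unless marked as chosen after their values were seen. Tff3, a small secreted trefoil protein, was at 16.6, 40.3, 7.51, 32.9 and 10.96 FPKM in Ctrl and 2.31, 0.594, 5.43, 1.67 and 1.07 FPKM in B2D (log2 fold change -2.74). Serpina12, the adipokine vaspin, was at 12.4, 15.7, 6.73, 18.2 and 7.59 FPKM and 1.12, 1.52, 1.68, 1.103 and 3.44 FPKM (log2 fold change -2.21). Neither overlapped between the diets, and both passed in all 10 leave-one-out fits. Nat8f5, an N-acetyltransferase gene with near copies, had a log2 fold change of -2.01, and its relative Nat8 went from 7.91 ± 1.75 FPKM in the Ctrl mice to 2.12 ± 0.619 FPKM in the B2D mice (SD, n = 5 per diet). Cebpe, a transcription factor better known from granulocytes, had 52, 73, 56, 51 and 72 reads in Ctrl and 3, 1, 7, 12 and 12 reads in B2D. It was nearly lost in every B2D mouse (log2 fold change -1.46, adjusted p = 0.000524). The summed level of 9 neutrophil markers was between 0.482 and 2.09 FPKM in Ctrl and between 1.97 and 6.23 FPKM in B2D. Srd5a1, the steroid 5-alpha-reductase, went from 30.8 ± 4.003 FPKM in the Ctrl mice to 9.88 ± 4.73 FPKM in the B2D mice (SD, n = 5 per diet). Akr1c6, a hydroxysteroid dehydrogenase with near copies, went from 416 ± 106 FPKM in the Ctrl mice to 146 ± 42.2 FPKM in the B2D mice (SD, n = 5 per diet). Adh4, which oxidizes retinol and alcohols, went from 76.8 ± 15.003 FPKM in the Ctrl mice to 32.4 ± 7.22 FPKM in the B2D mice (SD, n = 5 per diet), and all of these passed in all 10 fits. Nat8, Cebpe, Srd5a1, Akr1c6 and Adh4 were chosen after their values were seen. Among rises, Camk1d, a calcium-dependent kinase, was at 4.06, 3.07, 3.77, 3.43 and 5.22 FPKM in Ctrl and 7.72, 8.99, 9.36, 10.2 and 9.57 FPKM in B2D, without overlap. Sall1, a transcription factor, was at 4.15, 2.96, 5.77, 4.51 and 4.35 FPKM and 7.61, 10.03, 8.96, 11.9 and 11.1 FPKM, also apart, and both genes were past the threshold in all 10 fits. Slc4a4, a sodium bicarbonate cotransporter, had a log2 fold change of 0.98 and lost its call without Ctrl 4 (adjusted p = 0.0518). Thbd, the thrombin receptor thrombomodulin, had one of 1.01 and lost its call without Ctrl 1, Ctrl 2, Ctrl 4, B2D 2, B2D 3, B2D 4 or B2D 5, with an adjusted p of up to 0.0962.

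The B2D mice differed more from each other than the Ctrl mice did. The median SD of log2(FPKM + 1) was 0.212 among B2D mice and 0.178 among Ctrl mice, and 63.8% of genes had the larger SD in B2D. Across lists the order of the mice varied. The median deviation of the male-biased genes from the Ctrl mean was -2.09 in B2D 4 and -0.69 in B2D 3, while that of the female-biased genes was 1.23 in B2D 4, 1.10 in B2D 3 and 0.52 in B2D 2. The interferon-stimulated genes lay lowest in B2D 3, at a median deviation of -0.48, and nearest to Ctrl in B2D 5, at -0.12. The fasting and glucocorticoid genes lay highest in B2D 1, at 0.64, and at 0.06 in B2D 4. Wide spreads among B2D mice were seen in Cyp2b9 and Mup15, above, and in Nr0b2, the bile acid-induced repressor SHP, at 7.001, 15.2, 8.42, 10.5 and 10.1 FPKM in Ctrl and 30.8, 2.17, 19.02, 6.14 and 21.1 FPKM in B2D. Zbtb16, a glucocorticoid target, was high in B2D 1, B2D 3 and B2D 5 and within or below the Ctrl range in B2D 2 and B2D 4, at 12.5, 1.72, 19.4, 2.66 and 15.9 FPKM against 4.596, 2.45, 6.49, 4.09 and 2.53 FPKM in Ctrl. Hspa1b, a heat shock protein with a near-identical copy, was at 17.2, 4.51, 40.4, 5.55 and 8.71 FPKM in B2D, highest in B2D 3, and between 2.83 and 5.29 FPKM in Ctrl. Cyp2a22 was at 3.04, 7.45, 1.72, 26.2 and 6.34 FPKM in B2D, highest in B2D 4, as was Cyp2b9. None of Nr0b2, Zbtb16, Hspa1b and Cyp2a22 was called.

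**Figure D4:**
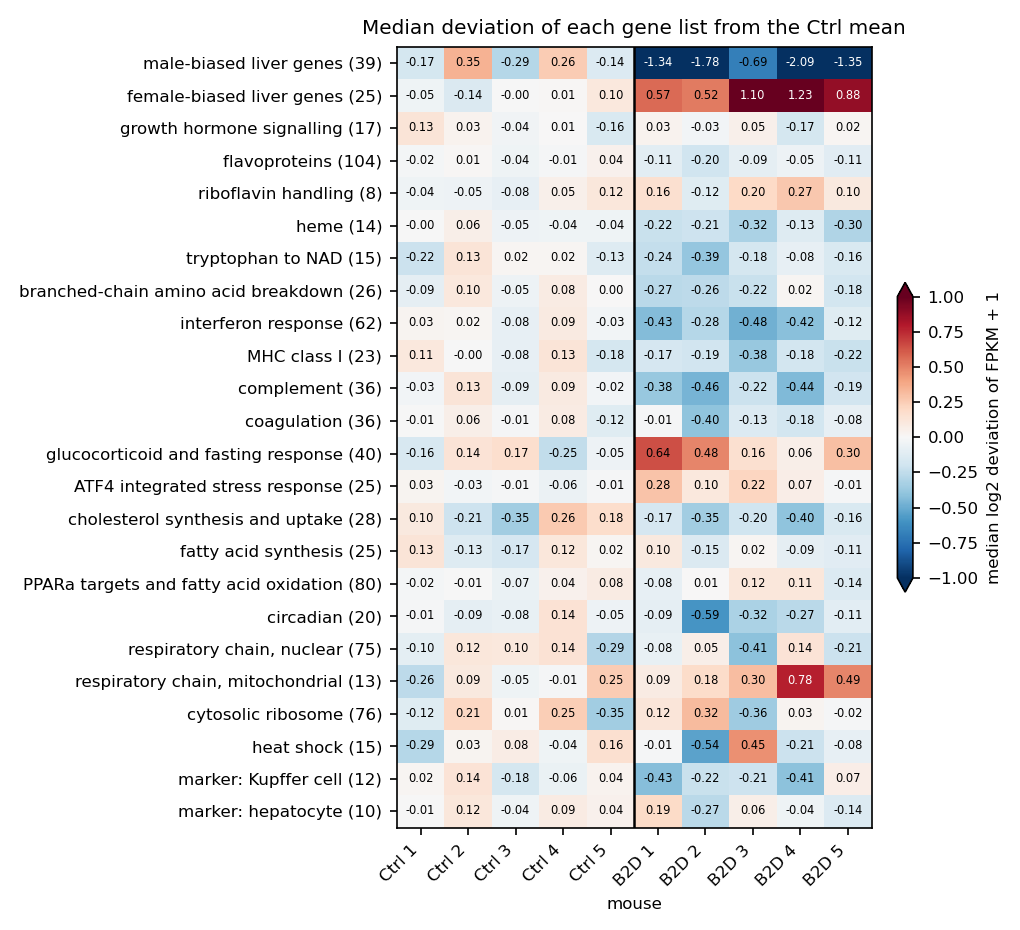
Each cell gives, for 1 list and 1 mouse, the median over the list's tested genes (their number in brackets) of the log2(FPKM + 1) deviation from the mean of the 5 Ctrl mice, with colours that saturate at 1 and -1. The male-biased row is between -0.69 and -2.09 in the B2D mice and the female-biased row between 0.52 and 1.23, and the interferon and complement rows are below 0 in all 5 B2D mice.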

How the data were processed

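Liver RNA was sequenced in 10 mice, 5 per diet, with 1 library per mouse. Per the methods of the study, RNA was isolated with RNeasy, libraries were made with the NEBNext Ultra kit and sequenced as paired ends on a NovaSeq, and the authors aligned reads with STAR to mm10 (GRCm38), counted them with featureCounts and compared diets with DESeq2. The strand setting is not given in the sources used here, so a gene and its antisense partner cannot be told apart. The table deposited by the authors holds FPKM per gene, which the methods call RPKM. Multiplied by gene length and a constant for each library, 100% of the values came out as whole reads (tolerance 0.02 of a read), and the authors' library scale equalled the median-of-ratios size factor over 13772 genes. The other table of the series was scaled separately and was not used. Depth was between 15320729 and 21266792 reads on genes, so that genes with few reads carry counting error of their own.

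Genes with a mean of at least 0.5 FPKM were kept, and log2(FPKM + 1) was fitted with limma 3.58.1 in R 4.3.3 with a mean-variance trend, as a two-sided comparison of B2D with Ctrl without covariates. P-values were adjusted by Benjamini-Hochberg over the 11574 genes, and a call needed an adjusted p under 0.05. Gene lists, markers and comparisons were chosen with earlier results of these data known. Genes are named by rule: the 15 largest rises and 15 largest falls without overlap, up to 8 called members of each list or, where none was called, up to 3 with the smallest p, every riboflavin handling gene, the 8 most abundant called in each direction and the 10 with the largest excess of spread in B2D, and others are marked in the text. Some genes that these rules give are not reported here. Alternatives were other pseudocounts, filters and scalings, array weights, voom on the recovered reads, a fold threshold and each mouse left out. Genes with near-identical copies (Mup, Serpina1, Hsd3b, Cyp2b, Cyp4a12, Oas1, Ifit3, Akr1c, Nat8f and Hspa1) are uncertain singly. Promoters are those of RefSeq for GRCm38.p6.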

Additional observations from a re-analysis of the deposited data

Results flagged for a closer look

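Of 310 groups of 5 mice examined, for log2(FPKM + 1) of the genes named above and for the median deviation of each marker list, 16 held a mouse whose gap to its nearest neighbour was a larger share of the group's range than Dixon's 95% critical value for 5 samples, 0.71. That is 5.16% of the groups, and chance gives about 1 in 20. In B2D 2, Sqor (0.762), Fech (0.776) and Sord (0.721) lay below the other B2D mice, and the median deviation of the adipocyte markers lay above them (0.947). In B2D 5, Cyp17a1 (0.799), Car3 (0.754) and Saa1 (0.745) lay above the other B2D mice. Alas2 was high in B2D 3 (0.898) and Sgk1 low there (0.734), Ndrg1 was high in B2D 4 (0.730) and Psmb8 low in B2D 1 (0.767). Among Ctrl mice, mt-Nd5 was low in Ctrl 1 (0.868), Hamp2 high in Ctrl 3 (0.740), Ppox high in Ctrl 4 (0.727) and Etfdh high in Ctrl 5 (0.840), and the median deviation of the stellate cell and fibroblast markers was low in Ctrl 2 (0.880).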

How the results depend on the processing

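No paired analysis was possible because no mouse number was shared between the diets. In the main comparison 224 genes were lower and 89 higher in B2D. The counts were 49 and 18 with no filter on low FPKM, where many more genes were tested. With limma array weights 151 genes were higher, with voom on the recovered reads 139, and with a required log2 fold change of 0.58 or more 58. Leaving out 1 mouse gave between 72 and 235 genes lower and between 26 and 97 higher. Leaving out B2D 2 and B2D 3 together, chosen after seeing the data, gave 75 and 26. Groups did not overlap for 576 genes, for 298 with a mean of at least 5 FPKM, where fewer genes were tested, and for between 643 and 964 with 1 mouse left out, where smaller groups overlap less. The settings not named here held the counts within 1.5 times. Over the 97 named genes that were called, 650 of the fits with 1 mouse left out kept the call and 315 lost it, and none reversed its direction. A kept direction was near certain, since these genes were selected as called in the same data. The causes of these shifts were not tested beyond the numbers of genes and mice. Genes with few reads, such as Cux2 and Slc22a27 in Ctrl, are limited by depth.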

Other observations

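The 12 endothelial markers summed to between 58.2 and 85.8 FPKM in Ctrl and between 68.6 and 84.2 FPKM in B2D, and limma called 0 of them, with 0 lower and 1 higher at an unadjusted p under 0.05. The 9 cholangiocyte markers summed to between 14.4 and 42.3 FPKM in Ctrl and between 13.6 and 27.5 FPKM in B2D, with 0 of the 4 tested called and 0 at an unadjusted p under 0.05. The 9 B and plasma cell markers summed to between 4.82 and 9.86 FPKM in Ctrl and between 3.91 and 7.85 FPKM in B2D, with 0 of the 4 tested called by limma and 1 lower at an unadjusted p under 0.05. Car3, an adipocyte and liver carbonic anhydrase, was at 315, 159, 39.9, 339 and 177 FPKM in Ctrl and 22.1, 22.98, 18.97, 20.3 and 41.1 FPKM in B2D (log2 fold change -2.73, adjusted p = 0.0143). Car3 passed in all 10 leave-one-out fits. It lost its call without both B2D 2 and B2D 3, a choice made after seeing the data that leaves fewer mice.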
